A study of Mus musculus with 9 samples.

Results

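The eicosanoid synthesis enzymes convert arachidonic acid into prostaglandins, thromboxane and leukotrienes. The 10 genes were listed as members by their known roles, and every array probe carrying 1 of these gene symbols, or an older alias of it, was taken. Of the 10 genes, 9 had a probe, with 19 probes among the 46237 on the array. Of the 19 probes, 12 were above background on at least 3 of the 9 arrays, and they represent 7 genes among 12246 genes tested. Ptgs1, the constitutive cyclooxygenase, had no probe named for it and is not analysed here.

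The samples are macrophages sorted out of lung tissue from C57/BL6 females, 8 weeks of age, using the surface proteins SiglecF and CD11b, with 3 single-colour Illumina beadchip arrays per group. Hom int pop denotes cells from Pparg-/-.LysMCre mice that are labelled Pparg deficient, and "int pop", a phrase of their titles, is not explained. Hom Mph denotes cells of the same mouse genotype that are labelled wild type, and Het Mph denotes cells labelled wild type from Pparg-/+.LysMCre mice. All 3 groups carry LysMCre, a Cre recombinase driven by the promoter of the lysozyme M gene, which is active in myeloid cells, so no group lacks the Cre and none has 2 intact Pparg alleles in its mouse genotype label. How wild type and deficient cells of 1 genotype were told apart is not given beyond the sort. The replicate numbers are not tied to mice in the labels, so p-values speak only for the spread among these arrays, part or all of which may be technical. The titles use the same numbers for both Hom groups, without saying whether arrays of 1 number share a mouse. By their titles, the 3 Hom int pop arrays lay on 1 beadchip and the 6 Mph arrays on another, so beadchip and group cannot be told apart in any comparison of Hom int pop.

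Eicosanoids are made in a branching pathway. Phospholipases free arachidonic acid from membranes, and cyclooxygenases turn it into prostaglandin H, which terminal synthases convert to prostaglandin E, prostaglandin D or thromboxane. In the other branch 5-lipoxygenase, helped by its activating protein, makes leukotriene A, which becomes leukotriene B or the cysteinyl leukotrienes. Alveolar macrophages are known as a lung source of leukotrienes and thromboxane, and cyclooxygenase-2 is known as an enzyme induced by inflammatory stimuli.

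The median deposited signal of an array ran between 146.2 and 184.2 in Hom int pop, between 145 and 241.7 in Hom Mph and between 198.4 and 290.3 in Het Mph, and from 37.8% to 42.5% of probes per array were above background (detection p under 0.05). Precision is limited by the number of arrays. Pparg, the deleted gene, read 7.58, 7.23 and 7.76 log2 signal on the Hom int pop arrays, 9.71, 9.15 and 8.13 on the Hom Mph arrays and 9.46, 9.36 and 9.55 on the Het Mph arrays at its brightest probe. Hom Mph replicate 3 was the lowest of the Mph arrays at this probe and at the other Pparg probes, where it read 6.74 and 4.35, inside the range of the Hom int pop arrays at the first of these and below it at the second. Against both Mph groups the difference was -1.70 (limma adjusted p = 0.0592). Where the Pparg probes lie relative to the deleted part is not known, so they do not check the labels.

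Levels below are log2 signals after background correction and quantile normalization, and each difference is a fitted log2 difference from limma, given with its standard error (SE). Calls required an adjusted p under 0.05, by Benjamini-Hochberg over all 12246 genes. Against the mean of Hom Mph and Het Mph, 0 of the 7 tested members were called, where 0.768% of all genes were called. A difference given from or against both Mph groups is from this mean, so it can rest on 1 of the groups. Against Het Mph, 1 member was called higher, where 1.05% of all genes were called in either direction. Against Hom Mph, 0 members were called, with 0.196% of all genes called. Between Hom Mph and Het Mph 0 members were called, with 0.0327% of all genes called. At an unadjusted limma p under 0.05, the counts in these 4 comparisons were 2, 3, 1 and 2 of 7 members, against 12.8%, 13.8%, 8.28% and 6.37% of all genes. The median member difference was -0.45, -0.48, -0.42 and 0.02 in the same order, and the median over all genes was -0.07, -0.12, -0.04 and -0.07. The 3 comparisons of Hom int pop share those arrays, so their values are not independent of each other.

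**Figure D1:**
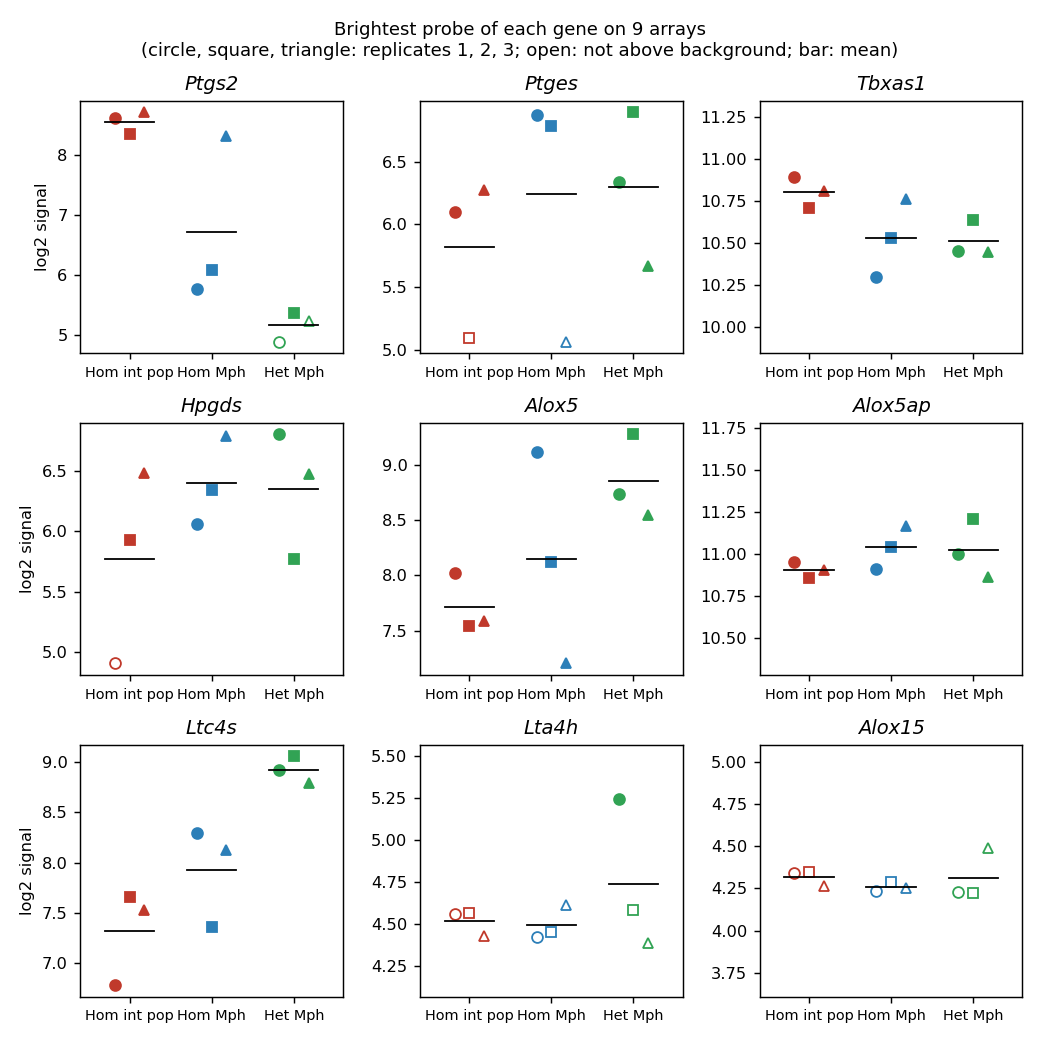
Log2 signal (vertical axes, scaled per gene) of the brightest probe of each of 9 enzymes in the Hom int pop, Hom Mph and Het Mph groups. Each point is 1 array, its shape gives the replicate, open points were not above background, and the bar is the group mean. Ptgs2 lay at 8.34 or more on all Hom int pop arrays and at 5.37 or less on all Het Mph arrays, and Ltc4s lay in the opposite order.

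Ptgs2, which encodes cyclooxygenase-2, the inducible enzyme of the first step of prostanoid synthesis, was the member with the largest difference. It read 8.61, 8.34 and 8.71 log2 signal on the Hom int pop arrays, 5.77, 6.08 and 8.31 on the Hom Mph arrays and 4.89, 5.37 and 5.22 on the Het Mph arrays. All 3 Hom int pop arrays were above all 6 Mph arrays, but Hom Mph replicate 3 lay just under the lowest of them while the other Mph arrays were far below. Its deposited signals were 521.92, 464.97 and 520.08 in Hom int pop, 169.35, 306.78 and 507.54 in Hom Mph and 206.96, 243.91 and 318.27 in Het Mph. The probe was above background on all Hom int pop and Hom Mph arrays and on only 1 of 3 Het Mph arrays, so the Het Mph level is close to the lower limit of measurement.

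Ptgs2 rose against Het Mph, at 8.55 ± 0.19 in Hom int pop and 5.16 ± 0.25 in Het Mph (mean log2 signal ± SD, n = 3 each), a log2 difference of 3.39 (SE 0.58, limma adjusted p = 0.0259) or 10.5-fold. An exact two-sided permutation test of these 3 against 3 arrays gave p = 0.1, the smallest it allows. In bulk RNA such as this, more cells expressing a gene and more RNA per cell cannot be told apart. The call was lost when any 1 of the Hom int pop or Het Mph arrays was left out, with adjusted p values between 0.0714 and 0.107, when no filter on dim probes was used (0.0777) and with the array median signal as a covariate (0.117). Over all alternatives its adjusted p ran from 0.00114 to 0.117.

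Against the mean of both Mph groups, the Ptgs2 difference was 2.61 (SE 0.50, 95% interval 1.49 to 3.73) or 6.11-fold, with an adjusted p of 0.0548 in limma, which missed the threshold. It passed under 7 of 14 processing alternatives. The exact two-sided permutation test of 3 against 6 arrays gave p = 0.0238, the smallest it allows. Without Hom Mph replicate 3 the difference was 3.02 with a limma adjusted p of 0.000992, and over all alternatives the adjusted p ran from 0.000992 to 0.230. That array had the highest Ptgs2 signal of the Mph arrays, so leaving it out widens the difference by the choice itself and is no support for it. Against Hom Mph alone, the group averaged 6.72 ± 1.39 and the difference was 1.83 (SE 0.58, adjusted p = 0.404). That difference was 2.64 (adjusted p = 0.0119) without Hom Mph replicate 3, within a range of 0.0119 to 0.679 over all alternatives. Hom Mph exceeded Het Mph by 1.56 (SE 0.58, adjusted p = 0.735), with no overlap between their arrays, and by 0.76 without Hom Mph replicate 3 (adjusted p = 0.763). The size of the Ptgs2 difference depended on the background correction: against Het Mph it was 1.85 with another normexp setting, 1.37 with none and 1.33 on the authors' normalized values.

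The second Ptgs2 probe was not above background on any array, with a lowest detection p of 0.949 and log2 signals between 4.18 and 4.34, and it gives no level to set beside the first. Many genes had groups whose arrays did not overlap. Against both Mph groups 6.88% of all genes had Hom int pop arrays wholly above or below the rest, and 1 of 7 members did. The shares were 22.6% against Het Mph, with 4 members, 12.9% against Hom Mph, with 1 member, and 12.1% between Hom Mph and Het Mph, with 2 members.

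The window around the start of Ptgs2 is shown because Ptgs2 is the called member, and that of Ltc4s because it has the smallest p among the members that lay lower. Both are from RefSeq on build GRCm38.p6, run 5′ to 3′ on the gene's own strand, and cover 250 bases before and 50 after the gene's start, the + strand of chr1:150099781-150100080 for Ptgs2 and the - strand of chr11:50238483-50238782 for Ltc4s. Capitals mark every match, on either strand, to 8 motifs. They are the TATA box TATAAA, the cAMP response element core TGACG, the E box CACGTG, the CCAAT box spelled CCAAT, the nuclear receptor element AGGTCA, the PU.1 core GAGGAA, the GC box GGGCGG and the NF-kB motif.
Ptgs2: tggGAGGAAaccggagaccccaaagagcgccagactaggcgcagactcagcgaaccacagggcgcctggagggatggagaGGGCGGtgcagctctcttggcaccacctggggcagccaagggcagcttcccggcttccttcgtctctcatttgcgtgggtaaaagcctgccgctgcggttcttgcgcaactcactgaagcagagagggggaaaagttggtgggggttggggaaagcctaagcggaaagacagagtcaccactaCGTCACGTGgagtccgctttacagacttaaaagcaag
Ltc4s: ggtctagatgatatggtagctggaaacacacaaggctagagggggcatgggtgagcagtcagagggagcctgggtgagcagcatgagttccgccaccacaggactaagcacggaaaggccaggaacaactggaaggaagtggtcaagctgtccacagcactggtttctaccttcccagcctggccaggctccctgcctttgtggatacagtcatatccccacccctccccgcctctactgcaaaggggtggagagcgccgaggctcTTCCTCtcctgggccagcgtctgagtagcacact
Counted from the first base of the window, Ptgs2 held the PU.1 core GAGGAA at bases 4 to 9, the GC box GGGCGG at 81 to 86, and the cAMP response element core TGACG, read on the other strand, at 264 to 268, overlapping the E box CACGTG at 267 to 272. Ltc4s held only the PU.1 core, read on the other strand, at bases 267 to 272. Of all 32851 RefSeq windows of this length, 28.3% held GAGGAA, 35.7% GGGCGG, 20.8% TGACG and 7.15% CACGTG. Of the 10 members, 8 had a window in the table, and GAGGAA was present in 8 of these 8 and GGGCGG in 3. The TATA box (13.6% of all windows), the cAMP response element core, the E box and the CCAAT box (37.4%) were each in 1 of the 8, while the nuclear receptor element (16.3%) and the NF-kB motif (8.46%) were in 0. A match is a description of letters in this window and says nothing about binding.

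None of the terminal synthases downstream of cyclooxygenase was called in any of the 4 comparisons. Ptges, which encodes the inducible prostaglandin E synthase, read 6.10, 5.10 and 6.27 in Hom int pop, 6.87, 6.79 and 5.06 in Hom Mph and 6.33, 6.89 and 5.66 in Het Mph. The groups overlapped, and the arrays at the low end, Hom int pop replicate 2 and Hom Mph replicate 3, were not above background. Its difference from both Mph groups was -0.45 (SE 0.48, limma adjusted p = 0.747), and -0.74 without Hom Mph replicate 3. From Hom Mph alone it was -0.42, and -1.005 without that array. A second Ptges probe was above background on Hom Mph replicate 3 only.

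Tbxas1, the thromboxane synthase, was above background on all 9 arrays at its brightest probe, with 10.89, 10.71 and 10.81 in Hom int pop, 10.30, 10.53 and 10.76 in Hom Mph and 10.45, 10.64 and 10.44 in Het Mph. The Hom int pop arrays lay above all Het Mph arrays and overlapped Hom Mph replicate 3. The difference was 0.28 from both Mph groups (SE 0.21, 95% interval -0.18 to 0.75, limma adjusted p = 0.618, exact two-sided permutation p = 0.0476) and 0.29 from Het Mph (adjusted p = 0.607). Its other probes, also past the filter, differed from both Mph groups by 0.39, 0.20 and -0.11, each with a limma adjusted p over all probes of 0.634 or more.

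Hpgds, the haematopoietic prostaglandin D synthase, read 4.91, 5.93 and 6.48 in Hom int pop, 6.06, 6.34 and 6.79 in Hom Mph and 6.80, 5.77 and 6.48 in Het Mph. The groups overlapped, and the lowest array, Hom int pop replicate 1, was not above background. The difference from both Mph groups was -0.60 (SE 0.38, limma adjusted p = 0.554). The second Hpgds probe was above background on 0 of 9 arrays.

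**Figure D2:**
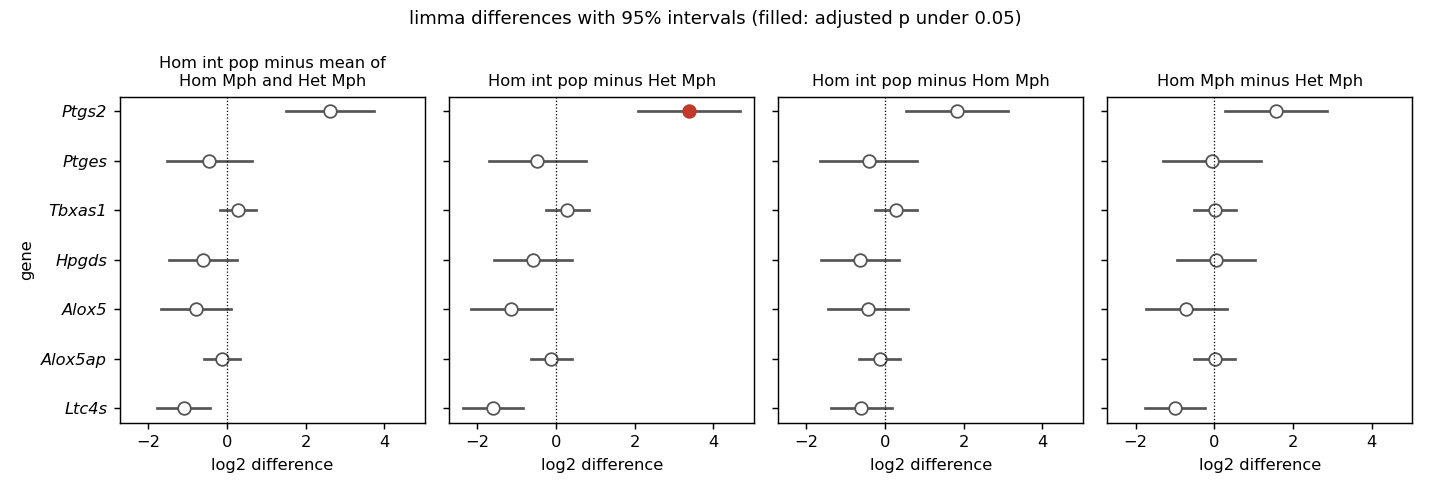
Log2 difference (horizontal axis) of the 7 tested enzymes in 4 comparisons, from left Hom int pop minus the mean of both Mph groups, minus Het Mph and minus Hom Mph, and Hom Mph minus Het Mph. Points are limma estimates with 95% intervals, and the filled point is Ptgs2 at 3.39 against Het Mph, the 1 member difference with an adjusted p under 0.05.

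In the leukotriene branch, all 3 tested genes had lower means in Hom int pop than in either Mph group at their brightest probes, and none was called. For Alox5ap these differences were only -0.12 and -0.14 (SE 0.23), and its second probe was higher in Hom int pop (9.81) than in Het Mph (9.69). Ltc4s, the leukotriene C synthase that begins the cysteinyl leukotrienes, read 6.78, 7.66 and 7.53 in Hom int pop, 8.30, 7.36 and 8.13 in Hom Mph and 8.92, 9.06 and 8.79 in Het Mph. All Het Mph arrays were above all arrays of both other groups, and Hom int pop and Hom Mph overlapped through Hom Mph replicate 2. Its deposited signals spanned 212 to 337 in Hom int pop, 412 to 488 in Hom Mph and 680 to 706 in Het Mph, and the probe was above background on every array.

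Ltc4s averaged 7.32 ± 0.48 in Hom int pop, 7.93 ± 0.50 in Hom Mph and 8.92 ± 0.13 in Het Mph (SD, n = 3 each). The difference from Het Mph was -1.60 (SE 0.34, 95% interval -2.37 to -0.83) with a limma adjusted p of 0.0660, which missed the threshold. It was called under 6 of 14 processing alternatives, with adjusted p values over all alternatives from 0.00745 to 0.217, and its size was -0.95 without background correction and -0.90 on the authors' normalized values. Against both Mph groups the difference was -1.10 (SE 0.30, adjusted p = 0.151) and against Hom Mph -0.60 (adjusted p = 0.701). Hom Mph also lay below Het Mph, by -0.99 (SE 0.34, adjusted p = 0.713).

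Alox5, the 5-lipoxygenase that makes leukotriene A, read 8.02, 7.54 and 7.58 in Hom int pop, 9.12, 8.13 and 7.20 in Hom Mph and 8.73, 9.28 and 8.55 in Het Mph. The Hom int pop arrays were below all Het Mph arrays, while Hom Mph spanned both, with replicate 3 the lowest of all 9. The difference was -1.14 from Het Mph (SE 0.46, limma adjusted p = 0.300) and -0.79 from both Mph groups (SE 0.39, adjusted p = 0.442). From Hom Mph alone it was -0.43 (adjusted p = 0.869), -0.91 without Hom Mph replicate 3 and 0.05 without Hom Mph replicate 1. Hom Mph differed from Het Mph by -0.70 (adjusted p = 0.829), and by -0.23 without Hom Mph replicate 3. A second probe differed less, by -0.44 from Het Mph (limma adjusted p = 0.712 over all probes), and the third was above background on Hom Mph replicate 1 only.

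Alox5ap, the 5-lipoxygenase activating protein, which presents arachidonic acid to the enzyme, showed no difference past the test. Its 3 arrays ran from 10.86 to 10.95 in Hom int pop, from 10.91 to 11.17 in Hom Mph and from 10.86 to 11.21 in Het Mph, so the groups overlapped. The difference from both Mph groups was -0.13, with a 95% interval of -0.58 to 0.32 (limma adjusted p = 0.835). A second probe, detected on all 9 arrays, differed by 0.06.

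Lta4h, the leukotriene A hydrolase that makes leukotriene B, has 1 probe, which was above background on Het Mph replicate 1 only. Its log2 signals ran from 4.43 to 4.57 in Hom int pop, 4.42 to 4.62 in Hom Mph and 4.39 to 5.25 in Het Mph. Both probes of Alox15, a 12/15-lipoxygenase, were above background on 0 of 9 arrays, with a lowest detection p of 0.814. No difference could be measured for these genes at these signals, and a probe at background does not show that the gene is silent.

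**Figure D3:**
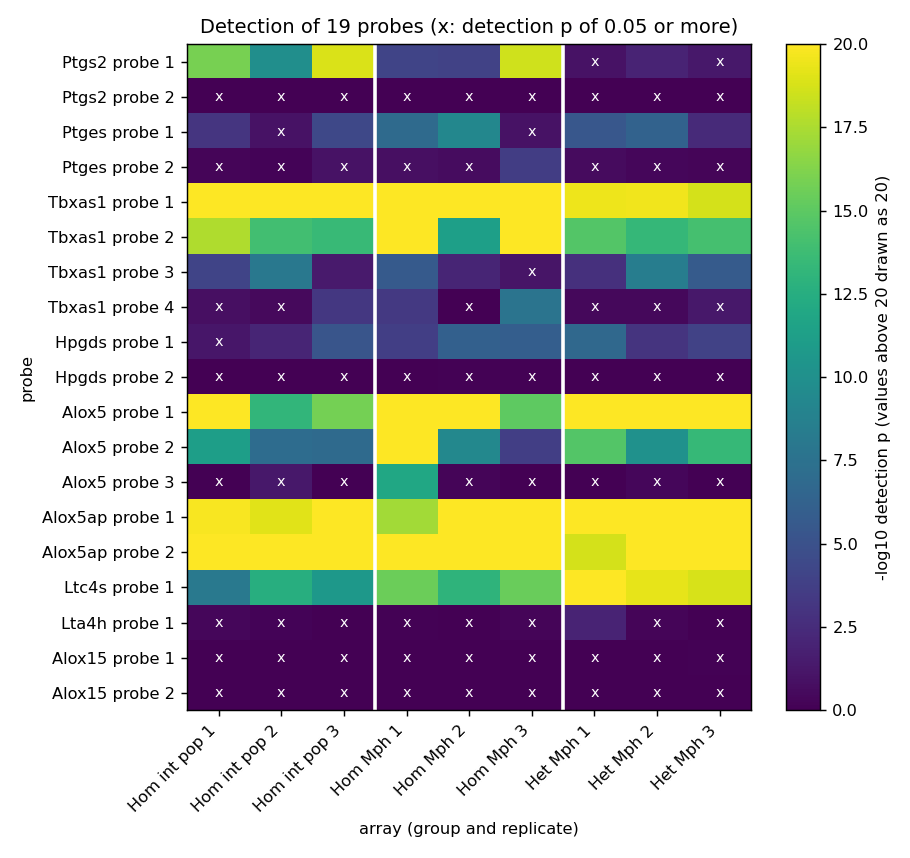
Detection of the 19 enzyme probes (vertical axis) on 9 arrays (horizontal axis), coloured by -log10 of the deposited detection p, with values above 20 drawn as 20 and x marking a detection p of 0.05 or more. Tbxas1 probe 1 and both Alox5ap probes were well above background on all 9 arrays, and Ptgs2 probe 1 missed on 2 Het Mph arrays.

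Ordered by mean difference from both Mph groups, the 7 tested members ran from Ptgs2 (2.61) through Tbxas1 (0.28), Alox5ap (-0.13), Ptges (-0.45), Hpgds (-0.60) and Alox5 (-0.79) to Ltc4s (-1.10). Of the 7, 2 were positive and 5 negative. The intervals of neighbours in this order overlap except those of Ptgs2 and Tbxas1. Differences between enzymes were not tested, and levels of different probes are not set against each other.

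The genes whose pattern over the 9 arrays was most like that of Ptgs2, by Pearson correlation of log2 signal among 12246 genes, were Ccl4 (r = 0.988), Itga5 (0.971), Ch25h (0.967), Cpeb2 (0.962) and Tnfsf9 (0.958). They were picked for this likeness, and all points share the same arrays and normalization. Ccl4, a chemokine, read 12.70, 12.40 and 12.89 in Hom int pop, 11.19, 11.51 and 12.47 in Hom Mph and 11.08, 11.25 and 11.17 in Het Mph. Tnfsf9, a ligand of the tumour necrosis factor family, read 9.87, 9.58 and 10.30 in Hom int pop, 7.27, 6.48 and 8.85 in Hom Mph and 4.16, 4.22 and 4.19 in Het Mph. In each of the 5 genes Hom Mph replicate 3 was the highest of the 6 Mph arrays, as it was for Ptgs2.

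Tnfsf9 was the 1 of these 5 genes that was called against the mean of both Mph groups (limma adjusted p = 0.00438) and against Het Mph (adjusted p = 0.00130). It was not called against Hom Mph alone (2.39, adjusted p = 0.177). Its Het Mph values were under the 4.34 reached by the second Ptgs2 probe, which was not above background on any array. The size of its differences from Het Mph is therefore open to how background is treated. The differences from both Mph groups were 1.22 for Ccl4 (adjusted p = 0.118), 1.84 for Itga5, an integrin subunit (0.102), 0.83 for Ch25h, which makes 25-hydroxycholesterol (0.149), and 1.04 for Cpeb2, an RNA-binding protein (0.149).

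Other genes of the eicosanoid pathway were counted in 4 lists. Of 11 tested genes for phospholipases and arachidonate supply (16 of 18 listed have a probe), 0 were called in any comparison, and 0 had an unadjusted limma p under 0.05. Their median difference from both Mph groups was 0.01. The smallest p values belonged to Pla2g5, a secreted phospholipase (-0.81, adjusted p = 0.438), Acsl4, an arachidonate-preferring acyl-CoA synthetase (-0.42, with 0.65, -0.27 and -0.20 at other probes), and Mgll, the monoacylglycerol lipase (-0.57, with 0.13 and -0.89 at other probes). Pla2g4a, the cytosolic phospholipase that supplies arachidonate on stimulation, was above background on at most 1 array and was not tested.

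Of 12 tested genes for other prostanoid and lipoxygenase enzymes (19 of 20 have a probe), 0 were called in limma in any comparison, and the median difference from both Mph groups was -0.11. An unadjusted p under 0.05 was reached by 1 gene there, Alox12, the platelet-type 12-lipoxygenase, at -0.84 (adjusted p = 0.373). The carbonyl reductases Cbr1 and Cbr3 differed by -0.53 (adjusted p = 0.483) and 0.75 (0.438), with -0.30 at another Cbr3 probe.

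Of the eicosanoid receptors, 5 of 16 with a probe were above the filter. Fpr2, a formyl peptide receptor that also binds lipoxin, fell against Het Mph, at 8.77 ± 0.42 in Hom int pop and 10.8 ± 0.15 in Het Mph (SD, n = 3 each), a difference of -2.02 (SE 0.36, limma adjusted p = 0.0315). It averaged 9.55 ± 0.61 in Hom Mph, and its difference from both Mph groups was -1.40 (adjusted p = 0.0881). The Fpr2 call was lost when any 1 Hom int pop or Het Mph array was left out, and its adjusted p ran from 0.000835 to 0.207 over all alternatives. The other receptors were not called: Ptgir, the prostacyclin receptor, differed from both Mph groups by 0.53 (adjusted p = 0.531) and Ptger2, a prostaglandin E receptor, by -0.49 (0.755). The median of the 5 was -0.18.

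Of 12 tested genes for breakdown and transport (14 of 15 have a probe), 1 was called lower against both Mph groups, against Het Mph and against Hom Mph, and 0 between the Mph groups, where 2 had an unadjusted limma p under 0.05. That gene was Slco2b1, an organic anion transporter listed here as a carrier of prostaglandins. Its probe was not above background in Hom int pop (4.34 ± 0.13), against 8.97 ± 0.61 in Hom Mph and 9.80 ± 0.13 in Het Mph. Slco2b1 passed the filter through the Mph arrays only, so its calls rest on the arrays that let it pass. It was at least 23.3-fold lower in Hom int pop than in both Mph groups, at least 31-fold lower than in Het Mph and at least 17.5-fold lower than in Hom Mph (limma adjusted p = 7.44e-05, 9.02e-05 and 0.000609). For each bound the Mph mean was divided by a Hom int pop mean in which a value under the dimmest above-background probe of that array was raised to it, and they hold for this background correction only. The fitted difference from both Mph groups was -2.35 without background correction and -2.30 on the authors' normalized values, and from Het Mph -2.66 and -2.60. Slco2b1 stayed called against both Mph groups and against Het Mph in all 23 alternatives run, and against Hom Mph in 23 of 24. The call against Hom Mph was lost with a replicate block over the Hom arrays alone (limma adjusted p = 0.144).

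Hpgd, the 15-hydroxyprostaglandin dehydrogenase that inactivates prostaglandins, averaged 7.53 ± 0.54 in Hom int pop, 6.03 ± 0.97 in Hom Mph and 5.10 ± 1.17 in Het Mph. The probe was above background on 3 Hom int pop, 2 Hom Mph and 1 Het Mph arrays. The Het Mph level of Hpgd is therefore close to the lower limit of measurement. Its differences, 1.96 from both Mph groups (SE 0.56, limma adjusted p = 0.170) and 2.43 from Het Mph (SE 0.64, adjusted p = 0.124), missed the threshold. Slco2a1, the prostaglandin transporter, differed by -0.93 (adjusted p = 0.333), with 0.10 at another probe. The median of the 12 genes was -0.13 against both Mph groups, where the median of all genes was -0.07.

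**Figure D4:**
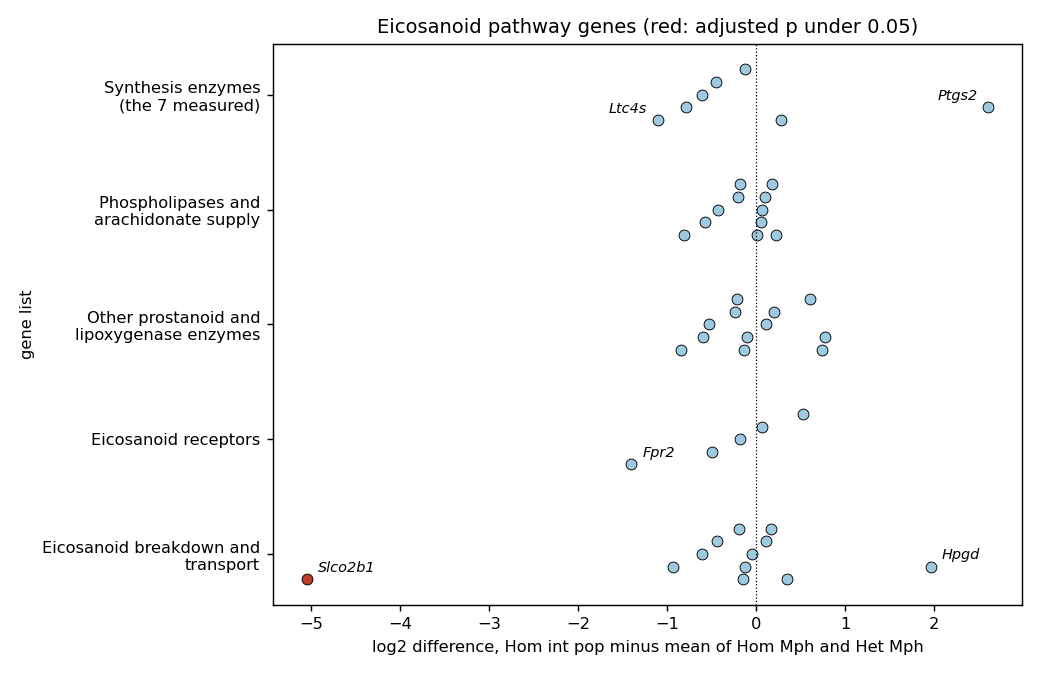
Log2 difference of Hom int pop minus the mean of both Mph groups (horizontal axis) for each tested gene of the 7 synthesis enzymes and 4 other eicosanoid lists (vertical axis, points spread only to be seen). Slco2b1 is the 1 gene with an adjusted p under 0.05, and its fitted value rests on a Hom int pop level not above background; Ptgs2 is the largest positive difference.

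Markers of the labelled cell type and of others moved with the groups, and their part in the enzyme values was not tested. Of 12 tested alveolar macrophage markers, 4 had higher and 8 lower means in Hom int pop than the mean of both Mph groups. Called lower were 2, Marco (-2.46, limma adjusted p = 0.0248) and Siglecf (-1.93, adjusted p = 0.0197), whose protein was a sort marker. Itgax lay higher (0.54, adjusted p = 0.300), at 10.13 or more in Hom int pop and 9.77 or less in both Mph groups. Krt79 was above background on the 3 Het Mph arrays only and passed the filter through them. Its call as lower against Het Mph (adjusted p = 0.00821) rests on the arrays that let it pass, and it was at background in Hom Mph too. The Marco and Siglecf calls were each kept with 4 of the 9 single arrays left out. Between 10 and 12 of 14 such genes were above background on each array, with summed linear levels of 12219 to 12692 in Hom int pop, 13522 to 15137 in Hom Mph and 13096 to 14105 in Het Mph, and Fabp4 and Fabp1 were at background on all 9 arrays. Of 8 monocyte and interstitial macrophage markers, 7 had higher and 1 lower means in Hom int pop than the mean of both Mph groups. Their median difference was 1.52, where that of all genes was -0.07. Apoe (2.90, adjusted p = 0.00676) and C1qb (at least 8.78-fold, 0.0144) rose and Fcgr4 fell (-3.46, 0.0191) against both Mph groups, and Csf1r rose against Het Mph (2.56, 0.0247). The C1qb bound holds for this background correction only, and its fitted difference was 1.81 with none. C1qb was at background in Het Mph and passed the filter through the Hom arrays only, so its calls rest on the arrays that let it pass. Without Hom int pop replicate 1, none of the calls of Apoe, C1qb, Fcgr4 and Csf1r just given was kept. Apoe and C1qb were also called higher against Het Mph (4.06, adjusted p = 0.00186, and at least 16.9-fold, adjusted p = 0.00538), and both calls were kept with each of the 9 arrays left out. The summed level of the 10 with a probe was 4845 to 7513 in Hom int pop, 2646 to 4298 in Hom Mph and 2403 to 2434 in Het Mph.

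Cell types known for some of these enzymes were checked in the same way. The neutrophil markers summed to 523 to 559 in Hom int pop, 491 to 690 in Hom Mph and 329 to 345 in Het Mph. Of 4 tested, 1 rose against the mean of both Mph groups, Mmp8 (at least 3.10-fold, limma adjusted p = 0.0202). It also rose in Hom Mph against Het Mph (at least 6.32-fold, adjusted p = 0.0169). Mmp8 was at background in Het Mph, and from Hom Mph alone Hom int pop differed by only 0.30 (7.87 against 7.57, adjusted p = 0.880). It passed the filter through the Hom arrays only, so its calls rest on the arrays that let it pass. The Mmp8 call against both Mph groups was kept with 2 of the 9 single arrays left out, and that between the Mph groups with 4. Against Het Mph, Mmp8 rose at least 7.80-fold (adjusted p = 0.00155), and that call was kept with each of the 9 arrays left out. These bounds hold for this background correction only, and with none the fitted Mmp8 differences were 0.69 against both Mph groups, 1.24 against Het Mph and 1.10 between the Mph groups. Of the 4 neutrophil markers 2 had higher and 2 lower means in Hom int pop than in both Mph groups, among them S100a8 (at least 1.99-fold, adjusted p = 0.137) and Camp (-0.70, adjusted p = 0.318). Among mast cell and basophil markers, cells that make prostaglandin D and leukotriene C, 0 of 3 tested (Fcer1a 0.08, Cma1 -0.02 and Ms4a2 -0.18) were called in limma (0 with an unadjusted p under 0.05 against both Mph groups) and Cpa3, Mcpt4, Mcpt8, Kit and Gata2 were at background on all 9 arrays (sums of 378 to 464 in Hom int pop, 299 to 415 in Hom Mph and 350 to 386 in Het Mph). Hdc, not tested, was above background on 2 of 3 Hom int pop arrays and on 0 Mph arrays. Its means were 5.99 in Hom int pop, 4.59 in Hom Mph and 4.69 in Het Mph. Tpsab1, also not tested, was above background on 1 Hom int pop array only. Among eosinophil markers 0 of 2 tested (Ear6 0.55 and Il5ra -0.12) were called in limma (0 unadjusted), and Prg2, Prg3, Epx, Ccr3 and the member Alox15, which the list also holds, were at background on all 9 arrays (176 to 214, 165 to 239 and 157 to 196 in the same group order). Among platelet markers, a source of thromboxane, 0 of 5 were called in limma (3 unadjusted), with differences of 1.42 for Gp9 (adjusted p = 0.270), -0.64 for Tubb1 (0.259) and -0.56 for Gp6 (0.391), and Pf4 and Gp1bb were at background on all 9 arrays (408 to 669, 394 to 492 and 383 to 484). Of 8 lung epithelial markers, 1 rose against both Mph groups, Hopx (2.15, adjusted p = 0.00870, with -0.44 at a probe under an older symbol). Of these 8, 4 had higher and 4 lower means, among them Epcam, which was at background on all 3 Hom int pop arrays (at least 2.85-fold lower, adjusted p = 0.266), and Krt8 (-0.77, adjusted p = 0.410), and the sums were 2225 to 3027, 1889 to 2205 and 2040 to 2370.

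**Figure D5:**
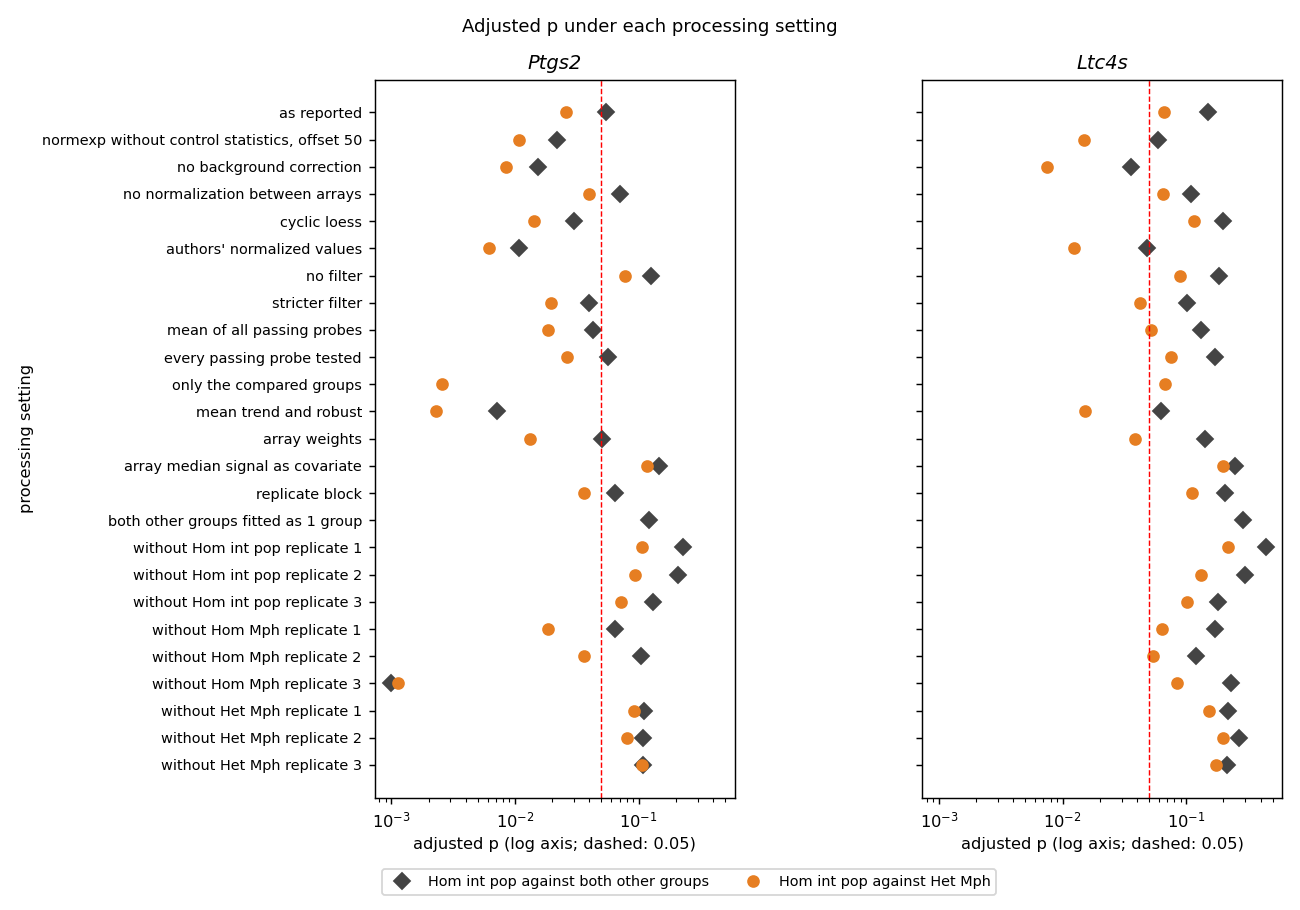
Limma adjusted p (horizontal log axis, dashed line at 0.05) of Ptgs2, left, and Ltc4s, right, under each processing setting (vertical axis), for Hom int pop against both other groups (diamonds) and against Het Mph (circles). The Ptgs2 circle moves past 0.05 when any 1 Hom int pop or Het Mph array is left out. Its diamond drops to 0.000992 without Hom Mph replicate 3, the Mph array with the highest Ptgs2 signal, whose removal widens the difference by that choice.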

How the data were processed

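The deposited, non-normalized table holds an intensity per probe and array on a linear scale, and a detection p-value, deposited without a description of how it was computed; the authors' normalized table of the same arrays is also an intensity and served as an alternative. Intensities were corrected by normexp using background statistics that limma infers out of the detection p-values (limma 3.58.1, R 4.3.3, offset 16), quantile normalized and put on the log2 scale. Detection p-values that do not come from ranks among control probes make that inference approximate. A probe was kept when its detection p was below 0.05 on 3 or more of the 9 arrays, and the brightest passing probe stood for a gene. Platform gene symbols, which can be old, were updated through a RefSeq table (GRCm38.p6) by gene identifier (28620 probes) or accession (2637), 4527 kept their symbol and 10453 have none; unique older aliases were used to match the lists. lmFit with 1 mean per group over all 9 arrays and eBayes gave 4 comparisons, adjusted by Benjamini-Hochberg over 12246 genes, and member probes were also fitted over all 21946 passing probes. Exact permutation tests (scipy 1.17.1) are two-sided. The fit was tested on simulated data. Genes named are all members, list genes called in any comparison or with the 3 smallest p against both Mph groups, and the 5 genes most like the member with the largest difference. Itgax, Pla2g4a, Fabp4, Fabp1, Hdc, Tpsab1 and other markers at background were named after their values were seen. The members and lists were chosen with earlier results of these data known. No columns beyond the 9 arrays were present, and no pair of arrays was identical.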

Additional observations from a re-analysis of the deposited data

How the results depend on the processing

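Of the member differences, 375 of 399 values under other processing and 234 of 252 with 1 array left out kept their direction and their side of the threshold; 2 and 6 lost a call, 15 and 2 gained one, and 7 and 10 changed sign. The cause was not tested. Only 1 member difference was called as reported, so most values that kept their side were uncalled differences that stayed uncalled. These shares say little about the Ptgs2 call. The comparisons below are Hom int pop against both Mph groups, against Het Mph and against Hom Mph, and Hom Mph against Het Mph, with 94, 129, 24 and 4 genes called in limma and 0, 1, 0 and 0 members. In this order, normexp without control statistics (offset 50) called 239, 292, 48 and 9 genes, with 1 and 2 members in the first pair of comparisons. No background correction called 276, 348, 67 and 15 genes, with 2 and 2 members. The authors' normalized values called 273, 323, 63 and 21 genes, with 2 and 2 members. A mean trend with robust fitting called 308, 375, 72 and 45 genes, with 1 and 2 members. The stricter filter called 142, 230, 42 and 4 genes, with 1 and 2 members. Cyclic loess and the mean of all passing probes each called 1 member against both Mph groups. Array weights called 242 genes and 2 members against Het Mph. The array median signal as a covariate called 35 genes against both Mph groups, and 40 genes and 0 members against Het Mph. Without a filter 0 members were called against Het Mph and 0 genes between the Mph groups, where no normalization gave 2. Fits of only the compared groups called 10 genes against Hom Mph and 0 between the Mph groups, where 780 genes had an unadjusted p under 0.05 with all arrays fitted. Both Mph groups fitted as 1 group called 58 genes. Same-numbered arrays did not all deviate together (correlations of -0.059 to 0.217 over all pairs of groups). Between the Hom groups, whose arrays of 1 number may share a mouse, these were 0.171, -0.059 and 0.135. With so few arrays this cannot exclude pairs, and the numbers were not used as pairs. A replicate block called 58, 106, 19 and 2 genes and 0, 1, 0 and 0 members, and 0 genes over the Hom arrays alone.

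Leaving out 1 array gave 22 to 99, 44 to 156, 7 to 28 and 0 to 6 genes, with 0 to 1 members in each comparison of Hom int pop and 0 between the Mph groups. Without Hom int pop replicates 1 and 2 the first count was 22 and 33, the second 44 and 50 and the third 7 and 11, and without Het Mph replicates 1, 2 and 3 the first was 61, 62 and 55 and the second 82, 75 and 60. Some differences changed sign. Between the Mph groups, Ptges was at 0.0014 (offset 50), 0.0059 (no background correction) and 0.0785 (loess), Hpgds at -0.1365 (no normalization) and -0.025 (authors' values), Alox5ap at -0.0756 and Tbxas1 at -0.0365 (both loess). With 1 array left out, the Mph difference ran from -0.063 to 0.11 for Alox5ap, -0.10 to 0.13 for Tbxas1, -0.38 to 0.53 for Ptges and -0.24 to 0.27 for Hpgds, and Alox5 against Hom Mph from -0.91 to 0.0459. Signal over background limits Ptgs2 in Het Mph, Ptges, Hpgds, Lta4h and Alox15, and the list gene Hpgd in Het Mph, so their differences are open to how background is treated.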
